A study of Homo sapiens with 6 samples.

Results

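The MAP kinase phosphatases are enzymes that remove phosphate from both the threonine and the tyrosine of an active MAP kinase, and their genes carry the symbol DUSP, for dual-specificity phosphatase. Expression of 10 of these genes was examined in BT-549 cells with and without silencing of NEAT1. The genes were DUSP1, DUSP2, DUSP4, DUSP5, DUSP6, DUSP7, DUSP8, DUSP10, DUSP14 and DUSP16, or 10 of 25545 genes with a row of expression values, matched by symbol. They were chosen by their values in this same comparison, so their levels, differences and counts past a threshold are given as a description and nothing is read from a test of them.

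BT-549 is an established, mesenchymal-like triple-negative breast cancer (TNBC) line that lacks the estrogen receptor. NEAT1 is the long noncoding RNA that scaffolds paraspeckles, which are condensates of the nucleus. The comparison asked how the transcriptome depends on NEAT1. Cells of this line were transfected with a control siRNA (CsiRNA, 3 libraries) or with an siRNA against NEAT1 (NEAT1siRNA, 3 libraries) and RNA was isolated after 48 h. The sample titles also carry the prefix tet- in both groups, whereas the treatment described for both is transfection of an siRNA. Only 1 siRNA against NEAT1 and 1 cell line entered the comparison, and the cultures are described as triplicates, so the spread between libraries may be technical.

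NEAT1 itself was at 13.4, 7.68 and 10.8 TPM with CsiRNA and at 4.36, 2.96 and 2.73 TPM with NEAT1siRNA, a log2 fold change of -1.41 ± 0.14 (SE; adjusted p = 1.21e-07 by limma, a linear model fitted across all genes). TPM are reads per gene scaled by gene length and then to a sum of 1000000 in each library. Read depth, recovered as described with the processing, was 17246030 to 20343083 reads with CsiRNA and 15786625 to 20181387 with NEAT1siRNA. In each library 4 short noncoding RNAs held 64.4% to 68.1% of all TPM, which lowers the TPM of every other gene. The mesenchymal genes VIM (1046 TPM with CsiRNA), CDH2 (104 TPM), FN1 (85.2 TPM) and ZEB1 (15.1 TPM) were expressed. FN1 (log2 fold change -0.47, limma adjusted p = 0.00116) and CDH2 (-0.34, limma adjusted p = 0.0186) were lower with NEAT1siRNA. For VIM (-0.15) and ZEB1 (-0.02) the limma adjusted p was 0.243 and 0.916. ERBB2 was at 6.19 TPM with CsiRNA and 5.98 TPM with NEAT1siRNA, and ESR1 was listed at 0 in every library. CD3E and CDH5, markers of T cells and endothelium, were also listed at 0, whereas CD68 was at 26.3 TPM with CsiRNA and 23.7 TPM with NEAT1siRNA.

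MAP kinases act at the end of tiered kinase cascades. ERK answers mainly to growth factors through RAS, RAF and MEK, and JNK and p38 answer mainly to stress and cytokines. The phosphatases differ in where they act and on which kinase. DUSP1, DUSP2, DUSP4 and DUSP5 are nuclear and are induced by the kinases they inactivate, DUSP6 and DUSP7 are cytoplasmic and prefer ERK, and DUSP8, DUSP10 and DUSP16 prefer JNK and p38. DUSP14 is a small atypical member that lacks the kinase-binding domain of the others. Several of these genes are transcribed in response to ERK activity and so form negative feedback loops, DUSP6 being the best known.

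BT-549 cells expressed most of the family at low to moderate levels. With CsiRNA, DUSP7 was highest at 17.6 ± 0.290 TPM (SD, n = 3), followed by DUSP16 (8.48 ± 1.39 TPM), DUSP6 (6.73 ± 0.630 TPM), DUSP1 (5.997 ± 0.891 TPM) and DUSP14 (5.26 ± 0.239 TPM). DUSP4 (4.85 ± 0.430 TPM), DUSP5 (3.91 ± 0.129 TPM) and DUSP10 (2.34 ± 0.111 TPM) were lower, and DUSP8 (0.553 ± 0.0525 TPM) and DUSP2 (0.505 ± 0.126 TPM) were below 1 TPM. In this order the ranges of neighbouring genes overlapped from DUSP16 through DUSP4 and again between DUSP8 and DUSP2. DUSP7, DUSP5 and DUSP10 did not overlap with either neighbour. With NEAT1siRNA the order became DUSP7, DUSP16, DUSP14, DUSP1, DUSP4, DUSP6, DUSP10, DUSP5, DUSP8 and DUSP2. DUSP6 thus moved from rank 3 to rank 6, and DUSP10 passed DUSP5.

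The order depends on the gene length behind the TPM. The length implied by the deposited TPM and the recovered reads was 2.83 times that of the canonical transcript for DUSP8, 1.95 times for DUSP14 and 1.33 times for DUSP4, against 0.867 to 0.997 times for the other 7 genes. Over 10106 genes the middle 90% of this ratio ran from 0.480 to 1.79. Expressed per kilobase of the canonical transcript and per 1000000 recovered reads (RPKM), DUSP14 came after DUSP7, at 12.2 with CsiRNA and 13.2 with NEAT1siRNA, and DUSP4 was at 7.70 and 5.54. On the same RPKM scale DUSP6 was at 7.21 with CsiRNA and 3.49 with NEAT1siRNA. DUSP8, below 1 by TPM, was at 1.86 and 1.59, with 118 to 187 recovered reads per library. The length cancels in a comparison of the same gene between groups.

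**Figure D1:**
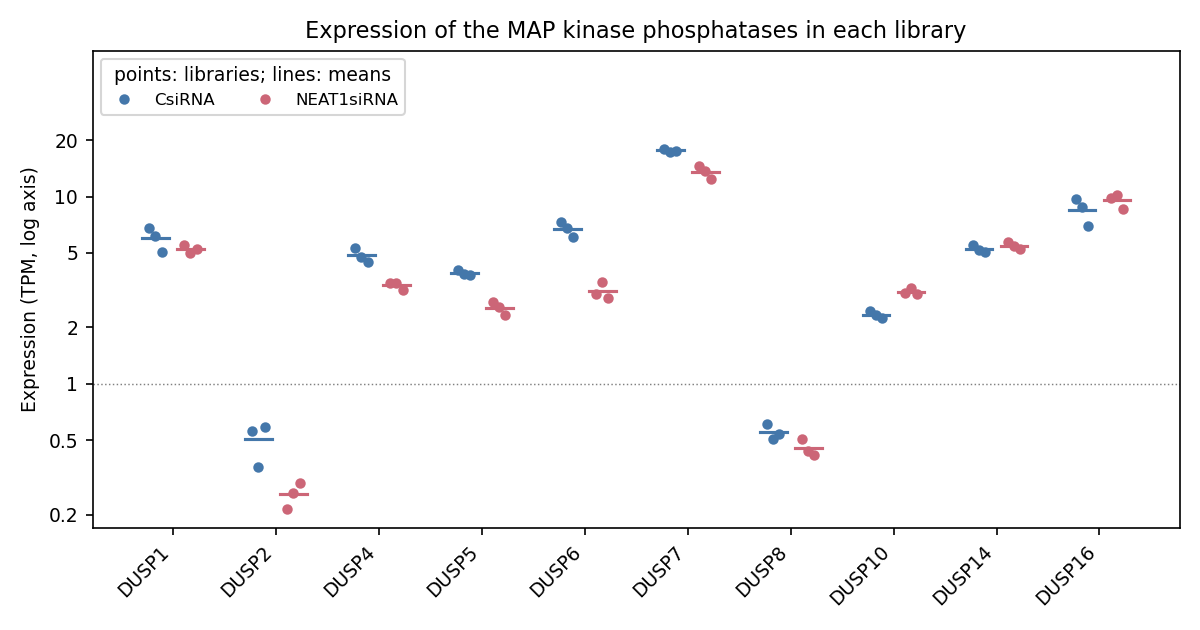
TPM of the 10 phosphatase genes on a log axis, with 1 point for each of 3 CsiRNA (blue) and 3 NEAT1siRNA (red) libraries, a line at each group mean and a dotted line at 1 TPM. The groups are separated for DUSP2, DUSP4, DUSP5, DUSP6 and DUSP7, which are lower with NEAT1siRNA, and for DUSP10, which is higher, and they overlap for DUSP1, DUSP8, DUSP14 and DUSP16.

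The upstream sequences of 5 of these genes are shown because they differ in the letters known from inducible promoters and in how the genes differed between groups. They are the 250 bases before the annotated start site, taken from RefSeq (GRCh38.p14) and written 5′ to 3′ on the strand of the gene. All 5 genes lie on the minus strand. The windows are chr12:89352502-89352751 for DUSP6, chr1:221742090-221742339 for the first of 2 start sites of DUSP10, chr5:172771196-172771445 for DUSP1, chr2:96145441-96145690 for DUSP2 and chr11:1572272-1572521 for DUSP8. Capitals mark matches to the cAMP response element (CRE, TGACGTCA), the E-box bound by MYC (CACGTG) and the TATA box (TATAAA).
DUSP6: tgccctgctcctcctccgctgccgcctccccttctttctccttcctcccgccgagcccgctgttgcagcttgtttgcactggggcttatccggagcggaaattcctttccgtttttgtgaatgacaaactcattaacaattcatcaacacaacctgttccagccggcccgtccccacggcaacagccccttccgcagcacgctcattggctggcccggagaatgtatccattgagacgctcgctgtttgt
DUSP10: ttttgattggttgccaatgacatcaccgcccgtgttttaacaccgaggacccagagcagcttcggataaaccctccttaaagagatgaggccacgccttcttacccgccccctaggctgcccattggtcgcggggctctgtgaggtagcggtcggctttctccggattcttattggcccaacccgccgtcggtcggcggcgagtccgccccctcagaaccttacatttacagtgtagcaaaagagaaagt
DUSP1: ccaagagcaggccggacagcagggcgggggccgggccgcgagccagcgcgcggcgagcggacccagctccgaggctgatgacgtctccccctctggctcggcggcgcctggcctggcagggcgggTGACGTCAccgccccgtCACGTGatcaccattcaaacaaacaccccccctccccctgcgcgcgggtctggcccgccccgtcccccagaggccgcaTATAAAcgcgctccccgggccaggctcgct
DUSP2: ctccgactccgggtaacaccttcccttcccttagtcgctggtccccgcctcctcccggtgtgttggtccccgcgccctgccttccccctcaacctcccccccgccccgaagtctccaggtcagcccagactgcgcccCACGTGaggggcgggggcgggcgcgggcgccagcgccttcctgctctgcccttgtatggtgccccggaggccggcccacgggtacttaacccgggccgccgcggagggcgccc
DUSP8: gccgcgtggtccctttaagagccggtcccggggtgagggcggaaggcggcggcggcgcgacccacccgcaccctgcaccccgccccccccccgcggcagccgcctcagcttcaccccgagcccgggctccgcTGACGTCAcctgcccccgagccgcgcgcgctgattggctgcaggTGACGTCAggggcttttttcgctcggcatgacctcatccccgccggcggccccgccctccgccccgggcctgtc

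Promoter windows of 8 of the 10 genes were searched for 8 motifs on both strands. DUSP5 had no promoter entry, and DUSP4 was left out of the search, so the counts below say nothing of either gene. DUSP1 held a CRE starting 125 bases before its start site, an E-box at 108 and a TATA box at 30. The CRE was also found at 118 and 74 bases before the start of DUSP8, and the E-box at 113 bases before that of DUSP2. Of 35116 promoters in the table, 1.65% held the CRE, 6.34% the E-box and 10.7% the TATA box. The GC box (GGGCGG), held by 42.6% of all promoters, was present in 7 of the 8 genes, the exception being DUSP6. No match was found in any of the 8 for the AP-1 site (TGANTCA, 6.57% of all promoters), the ETS site (CCGGAA, 14.5%), the CArG box (1.16%) or the NF-κB site (5.21%). None of the marked matches overlapped another motif. The DUSP6 window, with a GC content of 57.2% against 74.4% for DUSP1, 74% for DUSP2 and 76.8% for DUSP8, held none of the 8 motifs, which says only that these letters are not in this window.

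Silencing of NEAT1 went with lower DUSP6 and DUSP7, the pair of cytoplasmic phosphatases of ERK. DUSP6 (MKP-3; chr12:89347235-89352501, minus strand, GRCh38) was at 7.33, 6.80 and 6.07 TPM with CsiRNA and at 3.04, 3.52 and 2.87 TPM with NEAT1siRNA. Every NEAT1siRNA library lay below every CsiRNA library, and the NEAT1siRNA mean of 3.14 ± 0.334 TPM was 46.7% of the control mean. The log2 fold change on the log2(TPM + 1) scale was -0.90 ± 0.10 (SE), the largest in size among the 8 genes tested, and the recovered reads were 491, 462 and 502 against 219, 268 and 194. A long noncoding RNA on the opposite strand, ENSG00000274021, shares 1105 exon bases with DUSP6. It was not analysed here, the library kit was stranded and the strand setting of the counting is not given in the sources used here, so reads of that RNA may have entered the DUSP6 values.

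DUSP7 (MKP-X; chr3:52048919-52056571, minus strand), the most highly expressed member by either scale, was at 17.96, 17.4 and 17.6 TPM with CsiRNA and at 14.5, 13.7 and 12.4 TPM with NEAT1siRNA. The groups did not overlap, and the NEAT1siRNA mean of 13.6 ± 1.06 TPM was 76.9% of the control mean, a log2 fold change of -0.36 ± 0.09 (SE). The ratio of DUSP6 to DUSP7 TPM was 0.381 ± 0.0326 with CsiRNA and 0.232 ± 0.0234 with NEAT1siRNA, so the difference was larger for DUSP6 than for its close relative.

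Of the nuclear phosphatases, DUSP4 and DUSP5 were lower in every NEAT1siRNA library, and DUSP1 was not separated. DUSP5 (chr10:110497907-110511533, plus strand), which acts on ERK and holds it in the nucleus, was at 4.06, 3.84 and 3.82 TPM with CsiRNA and at 2.73, 2.58 and 2.34 TPM with NEAT1siRNA. DUSP4 (MKP-2; chr8:29333064-29350684, minus strand), which acts on ERK, JNK and p38, was at 5.32, 4.77 and 4.47 TPM with CsiRNA and at 3.46, 3.44 and 3.16 TPM with NEAT1siRNA. The log2 fold changes were -0.47 ± 0.09 for DUSP5 and -0.42 ± 0.10 for DUSP4 (SE), and the groups were separated for both. A processed pseudogene, DUSP5P1, had a mean of 0.245 TPM and could share reads with DUSP5.

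DUSP1 (MKP-1; chr5:172768096-172771195, minus strand), the stress-inducible phosphatase of p38 and JNK, was at 6.81, 6.14 and 5.04 TPM with CsiRNA and at 5.53, 4.98 and 5.22 TPM with NEAT1siRNA. Its lowest CsiRNA library lay within the NEAT1siRNA range, and its log2 fold change was -0.16 ± 0.10 (SE). That value ran from -0.26 without the third CsiRNA library to -0.07 without the first, so single control libraries set its size.

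DUSP2 (PAC-1; chr2:96143169-96145440, minus strand), a phosphatase of ERK and p38 known from activated lymphocytes, was at 0.564, 0.360 and 0.592 TPM with CsiRNA and at 0.216, 0.263 and 0.297 TPM with NEAT1siRNA. These values rest on 17, 11 and 22 recovered reads with CsiRNA and on 7, 9 and 9 with NEAT1siRNA. The NEAT1siRNA mean was 51.1% of the control mean and the groups did not overlap, but with a mean TPM under 1 the gene was not among those tested. On the recovered reads its log2 fold change was -0.89 ± 0.36 (SE, by voom, limma's method for read counts), against -0.26 on the log2(TPM + 1) scale without a filter, where the added 1 exceeds the value itself. Neither fit placed DUSP2 at a limma adjusted p under 0.05.

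The phosphatases that prefer JNK and p38 were not lower as a group. DUSP10 (MKP-5; chr1:221701424-221742089, minus strand), which acts on JNK and p38 and spares ERK, was at 2.46, 2.33 and 2.24 TPM with CsiRNA and at 3.04, 3.25 and 3.01 TPM with NEAT1siRNA. All 3 NEAT1siRNA libraries were above the control range, the mean was 132% of the control mean, and the log2 fold change was 0.29 ± 0.09 (SE). With any 1 of the 6 libraries left out that value was 0.27 to 0.32.

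DUSP16 (MKP-7; chr12:12473282-12562863, minus strand), a phosphatase of JNK and p38, was at 9.71, 8.76 and 6.98 TPM with CsiRNA and at 9.82, 10.3 and 8.58 TPM with NEAT1siRNA. The ranges overlapped and the log2 fold change was 0.16 ± 0.11 (SE), between 0.04 without the third CsiRNA library and 0.25 without the first. With a trend on GC and transcript length taken out of each library it was 0.25 ± 0.07, and DUSP16 then passed as higher at a limma adjusted p under 0.05. DUSP8 (chr11:1554051-1572271, minus strand), a member known mainly from brain and heart, was at 0.610, 0.507 and 0.541 TPM with CsiRNA and at 0.507, 0.436 and 0.418 TPM with NEAT1siRNA. Its highest NEAT1siRNA library met its lowest CsiRNA library, and its log2 fold change on the recovered reads was -0.24 ± 0.12 (SE, voom). DUSP8P1 and DUSP8P5, processed copies of DUSP8, were not analysed here.

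DUSP14 (MKP-6; chr17:37489891-37513501, plus strand) was at 5.52, 5.20 and 5.06 TPM with CsiRNA and at 5.70, 5.47 and 5.23 TPM with NEAT1siRNA. The ranges overlapped, and the log2 fold change was 0.05 ± 0.09 (SE).

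**Figure D2:**
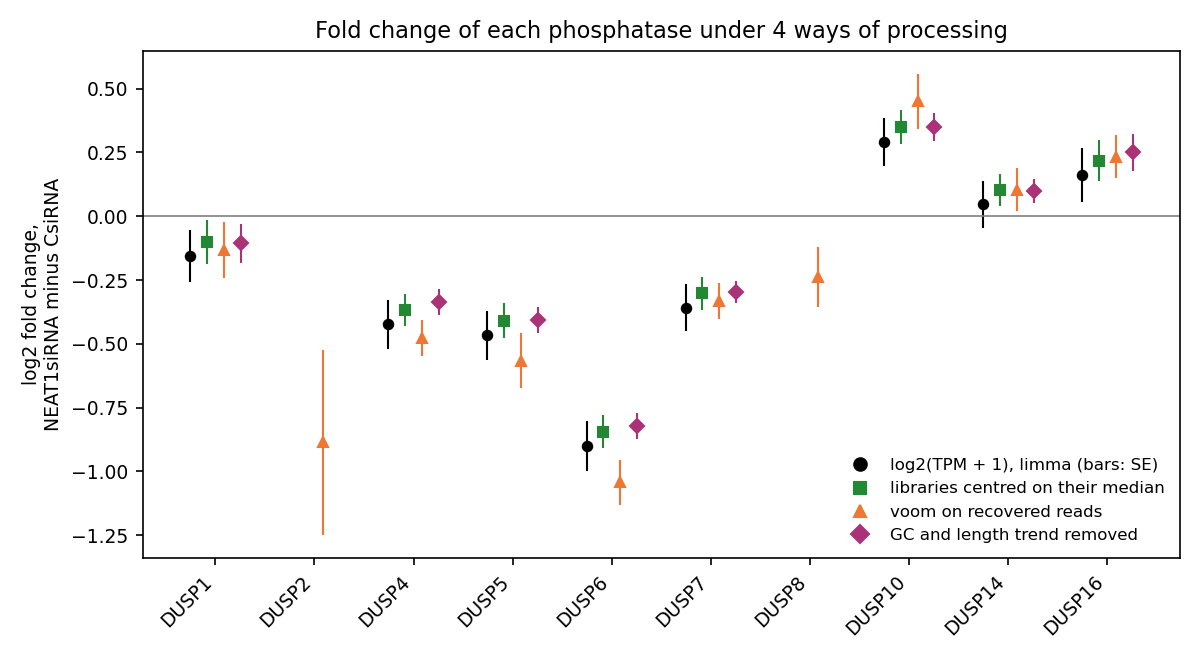
Log2 fold change (NEAT1siRNA minus CsiRNA) of each phosphatase gene under 4 ways of processing, with bars of 1 SE. DUSP6 lies lowest of the genes with a TPM-based value, DUSP4, DUSP5 and DUSP7 lie below 0 and DUSP10 above 0 in all 4, and DUSP2 and DUSP8 have a value on the recovered reads alone because their mean TPM was under 1.

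Across all genes the same contrast placed 1498 of 10721 past the threshold of a limma adjusted p under 0.05, or 14%, of which 963 (8.98%) were lower and 535 (4.99%) higher with NEAT1siRNA. This split depended on the scaling, with 1158 higher and 954 lower after centring each library on its median and 1082 higher and 1109 lower after quantile normalization. It was 940 and 1119 when the 4 short noncoding RNAs were left out of the TPM, and 1186 and 1280 with voom on the recovered reads. The number past the threshold was 759 without the first CsiRNA library and 838 without the third NEAT1siRNA library. Of the 10 phosphatases, 8 had a mean TPM of at least 1 and were tested, 4 of these were past the threshold as lower (DUSP4, DUSP5, DUSP6 and DUSP7) and 1 as higher (DUSP10). The 5 became 3 without the third NEAT1siRNA library, where DUSP7 and DUSP10 were lost, and 4 without any 1 of the other 5 libraries, where DUSP10 was lost. Of all 10, the NEAT1siRNA libraries lay below the control range for 5 genes, against 19.3% of all genes tested, and above it for 1 gene, against 11%. The median log2 fold change of the 8 was -0.26 and that of all genes tested was -0.04. The members were selected on this contrast, so nothing follows from these shares. The direction of each of the 8 tested genes was the same under every alternative that gave it a value, these scalings included (DUSP4, DUSP5, DUSP6 and DUSP10 had none with a minimum mean of 5 TPM). DUSP2 and DUSP8 were lower under each of the settings that gave them a value, but past the threshold under none of these.

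Summed over the 10 genes, phosphatase expression was 60.3, 56.1 and 52.4 TPM with CsiRNA and 48.6, 47.9 and 43.6 TPM with NEAT1siRNA, and the groups did not overlap. The sum of DUSP6 and DUSP7 went from 24.4 ± 0.826 TPM with CsiRNA to 16.7 ± 1.23 TPM with NEAT1siRNA, or 68.5% of control, and that of the 4 nuclear members from 15.3 ± 1.41 to 11.4 ± 0.474 TPM, or 74.8%. The 3 members that prefer JNK and p38 summed to 11.4 ± 1.52 TPM with CsiRNA and 13.1 ± 0.993 TPM with NEAT1siRNA, and these ranges overlapped. The make-up of the family in TPM thus differed between groups. Sums and shares over several genes depend on the gene lengths behind the TPM, which do not cancel there. The JNK- and p38-selective members held 18.6% to 21.2% of the summed TPM with CsiRNA and 27.5% to 29.1% with NEAT1siRNA, whereas DUSP6 alone went from 12.0% ± 0.318 to 6.73% ± 0.554. DUSP16 had 1.25 ± 0.0927 times the TPM of DUSP6 with CsiRNA and 3.04 ± 0.168 times with NEAT1siRNA. In bulk RNA a lower level in every cell and a level lost from some of the cells cannot be told apart.

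**Figure D3:**
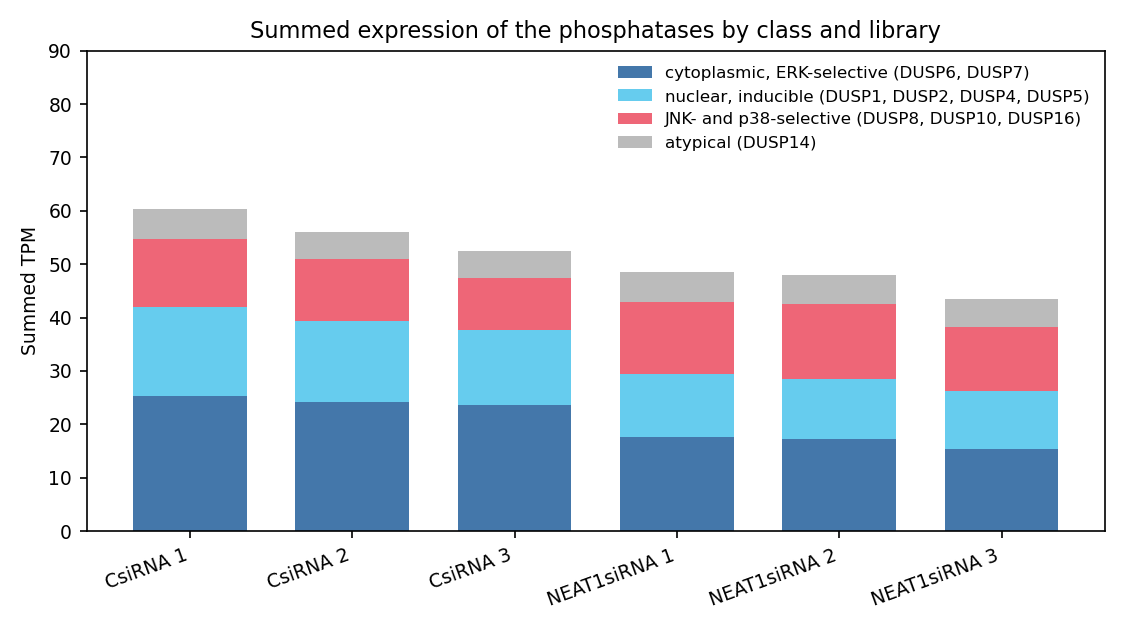
Summed TPM of the 10 phosphatase genes in each of the 6 libraries, stacked by class. The totals run from 52.4 to 60.3 TPM with CsiRNA and from 43.6 to 48.6 TPM with NEAT1siRNA, and the DUSP6 and DUSP7 segment at the base is the one that is most reduced.

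DUSP6 had the lowest fold change of the tested members, and the genes whose profile over the 6 libraries was closest to it were AMIGO2 (Pearson r = 0.99962), POLE3 (0.99929), SHISA2 (0.99922), CTGF (0.99825) and RGMB (0.99765) among the 7237 genes whose mean was 5 TPM or more. All points come from the same 6 libraries in 2 groups, so a gene with well separated groups and a lower NEAT1siRNA mean correlates highly. AMIGO2 went from 12.2 ± 1.26 TPM to 5.03 ± 0.539 TPM and CTGF from 175 ± 15.4 TPM to 87.0 ± 6.98 TPM. Among the phosphatases in that set, r with DUSP6 was 0.948 for DUSP7 (rank 359), 0.644 for DUSP1, -0.31 for DUSP16 and -0.35 for DUSP14.

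Of the kinases on which these phosphatases act, the 4 given here did not pass the test. MAPK3 (ERK1) was at 8.95 ± 0.670 TPM with CsiRNA and 10.3 ± 0.235 TPM with NEAT1siRNA (log2 fold change 0.18 ± 0.09, limma adjusted p = 0.212). MAPK8 (JNK1), MAPK9 (JNK2) and MAPK14 (p38α) had log2 fold changes of 0.07, 0.05 and -0.10 with limma adjusted p-values of 0.717, 0.799 and 0.589. After quantile normalization, after centring on the median and with voom, 4 genes of the ERK module passed as higher, MAPK3 among them. The ERK module, which runs from RAS through RAF and MEK to the RSK kinases, had 20 genes tested. Of these 2 fell, RASA1, which switches RAS off (29.2 to 22.1 TPM, log2 fold change -0.39 ± 0.10, limma adjusted p = 0.0112), and KSR1, a scaffold for RAF and MEK (2.86 to 2.11 TPM, -0.31 ± 0.10, adjusted p = 0.0407). Both calls were lost without the first CsiRNA library or without the third NEAT1siRNA library, and that of KSR1 also without the third CsiRNA library. The call of KSR1 was lost as well after centring on the median and when the 4 short noncoding RNAs were left out of the TPM.

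In other parts of the network the share past the threshold was near that of all genes, of which 14% passed, and the ERK module had 2 of 20. Of 11 genes of the JNK module tested, MAPK8IP3, a JNK scaffold, fell (1.87 to 1.14 TPM, log2 fold change -0.42, limma adjusted p = 0.00745) and 1 other gene was called higher by voom. Of 13 genes of the p38 module, MAP2K3, which activates p38 (18.4 to 14.9 TPM, -0.29, adjusted p = 0.0339 by limma), and MAPKAPK5, a kinase downstream of it (16.3 to 13.2 TPM, -0.29, adjusted p = 0.0399), fell. The call of MAP2K3 was lost when any of the 3 CsiRNA libraries or NEAT1siRNA library 3 was left out, and that of MAPKAPK5 without CsiRNA library 1 or 2 or NEAT1siRNA library 1 or 3. The call of MAPKAPK5 was also lost with the GC and length trend removed. MAP2K6, the other main activator of p38, named here after its values were seen, was at 0.150, 0.0910 and 0.119 TPM with CsiRNA and at 0.524, 0.564 and 0.427 TPM with NEAT1siRNA. It was not tested because its mean TPM was under 1, and it passed as higher with no filter and with voom on genes with at least 10 reads in all. Of 4 ERK5 module genes and 7 other phosphatases of MAP kinases, such as the PP2A subunits, 0 passed in either direction by limma, 0 had an unadjusted p under 0.05 and 0 passed by voom. With the GC and length trend removed, 2 of the ERK5 module genes passed as higher and 1 of these phosphatases as lower. Of 8 other dual-specificity phosphatases tested, DUSP12, a zinc-finger member, fell (16.98 to 12.997 TPM, -0.36, limma adjusted p = 0.0116), a call lost without the first CsiRNA library or the third NEAT1siRNA library. The medians of the 6 lists lay between -0.11 (other dual-specificity phosphatases) and 0.09 (ERK5 module).

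Most genes of a list known to follow ERK activity fell, and DUSP4 and DUSP6 are usually counted among such genes. Of the 8 others on that list, 6 fell and 0 rose by limma (7 and 0 at an unadjusted p under 0.05, and 7 and 0 by voom), and the median log2 fold change was -0.48 against -0.04 for all genes tested, of which 8.98% fell. Cyclin D1 (CCND1), which drives entry into S phase, went from 15.0 ± 0.253 to 8.67 ± 0.966 TPM (log2 fold change -0.73, limma adjusted p = 8.54e-06). The receptor tyrosine kinase EPHA2 went from 62.4 ± 4.43 to 37.996 ± 2.17 TPM (-0.70, limma adjusted p = 8.11e-06), the ETS factor ETV5 from 13.01 ± 0.729 to 7.72 ± 0.242 TPM (-0.68, adjusted p = 1.25e-05) and SPRY4, an inhibitor of receptor signalling to RAS, from 4.39 ± 0.285 to 2.66 ± 0.164 TPM (-0.56, adjusted p = 0.000233). ETV4 and SPRY2 also fell, by 0.39 and 0.35 on the log2 scale, and EPHA4 (-0.25) and PHLDA1 (-0.09) were not past the threshold. The call of SPRY2 was lost without the first CsiRNA library or the third NEAT1siRNA library. The number that fell was 4 to 7 under the alternatives, and no gene of the list rose under any of them. The list was written with earlier results of these data known.

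Of 18 transcription factors tested that are known to act at promoters of this family, 6 fell and 0 rose by limma (8 and 0 at an unadjusted p under 0.05, and 6 and 1 by voom). FOSL1, the AP-1 component also called FRA1, went from 67.1 ± 3.30 to 34.1 ± 1.001 TPM (log2 fold change -0.96, limma adjusted p = 3.46e-08), near the size of the difference in DUSP6. JUN, its partner in AP-1, went from 34.8 ± 2.80 to 24.7 ± 2.01 TPM (-0.48, limma adjusted p = 0.00116), MYC from 36.7 ± 1.72 to 27.1 ± 1.10 TPM (-0.43, adjusted p = 0.00197) and NFKB1 from 11.1 ± 1.34 to 8.10 ± 0.501 TPM (-0.41, adjusted p = 0.00564). FOSL2 and ETS1 were the other 2 that fell. The calls of NFKB1 and FOSL2 were lost without the first CsiRNA library, and that of ETS1 when any of 4 libraries was left out. FOS had a mean TPM under 1 and was not tested. Over the 8 lists, 18 of 89 genes tested fell and 0 rose by limma, where 8.98% and 4.99% of all genes did. At an unadjusted p under 0.05 by limma 25 were lower and 4 higher, and voom called 20 lower and 6 higher. With the GC and length trend removed limma called 22 lower and 14 higher, 6 of the latter in the ERK module. The 18 became 9 without the first CsiRNA library and 11 without the third NEAT1siRNA library.

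**Figure D4:**
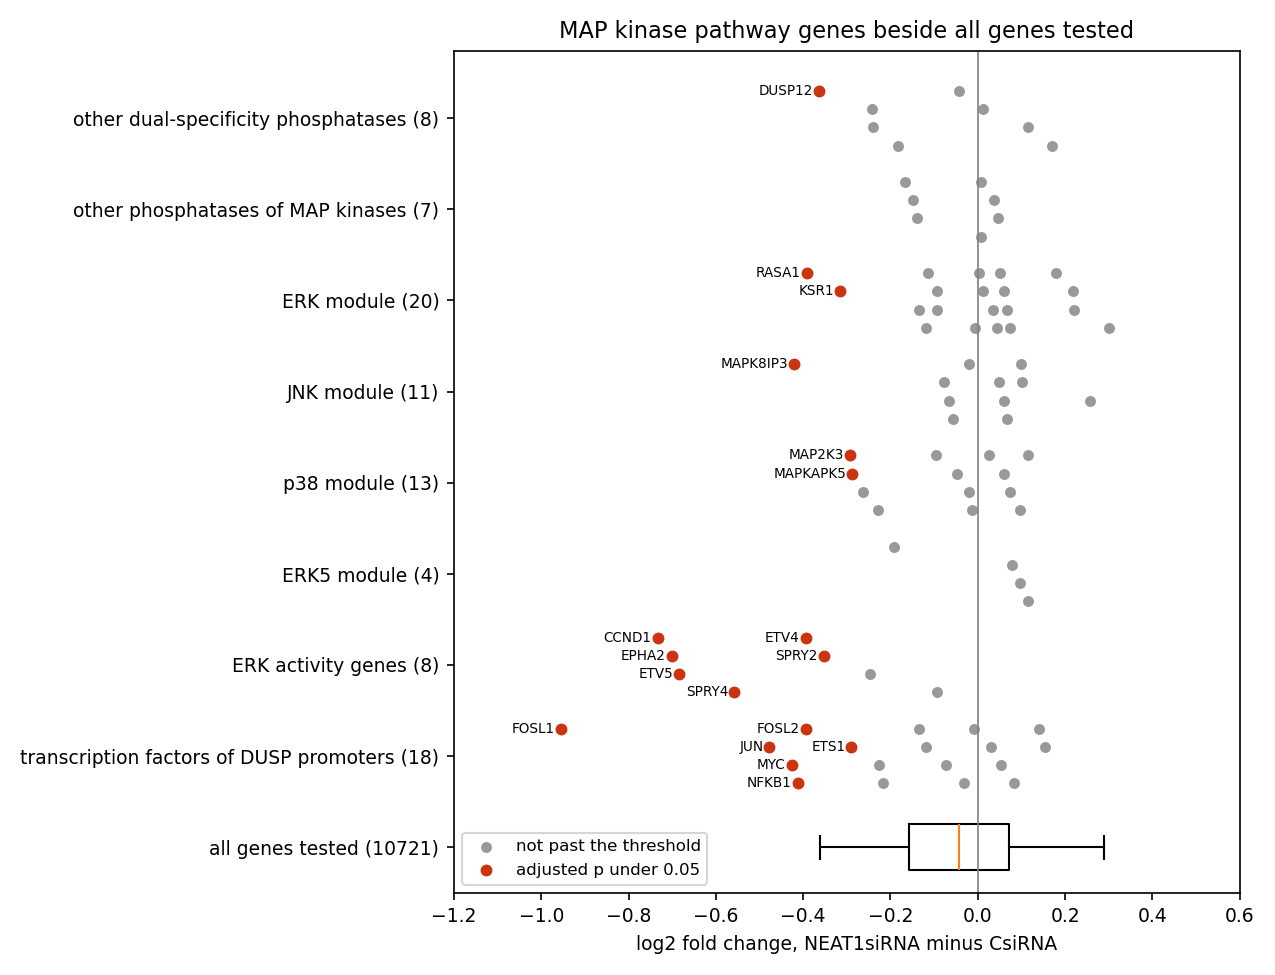
Log2 fold change (NEAT1siRNA minus CsiRNA) of the tested genes of 8 lists of MAP kinase pathway genes, without the 10 phosphatases, with the number tested in brackets and genes past the threshold in red. The box gives the quartiles of all 10721 genes and its whiskers the middle 90%. Points past the threshold gather among the ERK activity genes (6 of 8) and the transcription factors (6 of 18).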

How the data were processed

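RNA-seq of 6 BT-549 libraries was re-analysed from 2 deposited tables. Per the labels, a stranded kit was used, and the authors mapped reads with STAR (GRCh38), compared the groups with DESeq2 and deposited TPM per gene and library, which sum to 1000000 in each library. Tool versions, the gene lengths behind the TPM and the strand setting are not given in the sources used here. The other deposited table holds a mean normalized count per gene, a signal averaged over the 6 libraries, which was used only to recover reads. Its log2 fold changes, standard errors, test statistics and p-values are the authors' own comparison and were not used.

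The 10721 genes whose mean was 1 TPM or more were compared on log2(TPM + 1) by limma 3.58.1 (R 4.3.3; linear model and empirical Bayes step fitted with a mean-variance trend), with Benjamini-Hochberg adjustment over all of them and a threshold of 0.05. Fold changes are NEAT1siRNA minus CsiRNA, and the added 1 understates those of low genes. An exact two-sided permutation test of 3 against 3 cannot go below p = 0.1, so none was run. Whole reads were recovered from both tables, and a whole number was met to within 0.05 by 99.8% of nonzero values where the mean normalized count was under 5, 98.5% from 5 to 50, 72.1% from 50 to 500 and 15.4% above, where reads are approximate. Figures and counts were made with Python 3.11.15, numpy 2.4.6, pandas 2.3.3 and matplotlib 3.10.9. Coordinates and transcript lengths are from the GENCODE annotation of GRCh38, matched by symbol, and promoters from RefSeq.

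The members and the 8 pathway lists were chosen with earlier results of these data known. Named genes are the 10 members, at most the 4 genes past the threshold with the largest change in each list, the main kinases, NEAT1, and the 5 genes most like DUSP6, and some results under this rule are not reported here. Alternatives were a pseudocount of 0.1, no filter, a mean of 5 TPM or more, quantile normalization, median centring, TPM without RN7SK, RN7SL1, RN7SL2 and RPPH1, eBayes without trend, voom on recovered reads, the replicate block, removal of a GC and length trend (splines with 4 degrees of freedom) and leaving out each library. Voom with at least 10 reads in all and RPKM on canonical lengths were chosen after seeing the data. The limma fit was also run on simulated reads with the same spread set for all genes and no GC trend. How it performs on libraries with a GC trend like these was not tested.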

Additional observations from a re-analysis of the deposited data

How the results depend on the processing

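The 1498 genes past the threshold became 505 with no filter, 2466 with voom, 3423 with the GC and length trend removed, 3334 with that removal and the replicate block, and 2682 with voom on genes with at least 10 reads in all. Leaving out 1 library gave 759 (without CsiRNA 1) to 2083 (without NEAT1siRNA 2), and 838 without NEAT1siRNA 3. Of the phosphatases 5 were past it. The number was 2 with no filter (DUSP5 and DUSP6) and 1 with a mean TPM of at least 5, where 4 were tested. It was 3 (without NEAT1siRNA 3) to 4 with 1 library left out. With the GC and length trend removed it was 6, with or without the replicate block, as DUSP16 also passed as higher. The 18 other pathway genes became 8 with no filter, 36 with the trend removed (22 lower and 14 higher), 30 with that and the block, 28 with voom on genes with at least 10 reads, and 9 (without CsiRNA 1) to 23 (without NEAT1siRNA 2) with 1 library left out, 11 without NEAT1siRNA 3. Of these 18, 7 (SPRY4, CCND1, EPHA2, ETV5, FOSL1, JUN and MYC) were past it under every alternative that gave them a value, which for SPRY4 leaves out the minimum mean of 5 TPM. All the others of these 18 were lost with no filter. The median log2 fold change of the phosphatases was -0.05 with a mean TPM of at least 5, where only 4 entered. No filter tests more genes, and a left-out library leaves fewer samples, yet the count of genes rose without NEAT1siRNA 2. Why the counts moved was not tested.

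Libraries with the same replicate number had correlations of deviations of -0.030, 0.25 and -0.11. These show no pairing by number, but so few libraries cannot exclude it. The replicate block gave 1640 genes past the threshold, 5 of the phosphatases and 18 of the other pathway genes. Depth limits DUSP2 (7 to 22 reads per library) most. In each library the deviations of genes from their group mean were set against the GC content of their transcripts. Spearman's rho across 10106 genes ran from -0.73 in NEAT1siRNA 2 to 0.68 in NEAT1siRNA 1. With the group means taken out, these values do not compare the groups. The part of GC content in single genes was examined only through the removal above.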
